A study of Arabidopsis thaliana with 8 samples.

Results

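The AP2/ERF superfamily is one of the large families of plant transcription factors, and 36 of its genes were among the 3691 genes listed in the deposited root and shoot tables of Arabidopsis thaliana. A gene was taken as a member when its RefSeq name or product was one of ethylene response factor, ethylene responsive element binding factor, AP2, DREB, C-repeat binding factor or integrase-type DNA-binding superfamily, and when its coding note listed the AP2/ERF domain. The annotation holds 146 genes with that domain, 123 of them with a covered name, and 44 were listed. The 8 listed domain genes whose names fall outside the rule were ERF11, TEM2, RAP2.3, EDF3, DEAR1, CRF6, RRTF1 and CRF3. Another 3 genes with a covered name had no AP2/ERF domain and were left out.

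RNA was sequenced from roots and shoots of wild-type plants of ecotype Col-0. The tested plants received 100 µM of 2,5-dimethylpyrazine, written 2,5-D as in the labels, a volatile that microbes release, on a paper disc in a divided plate. The control plants received sterilized water on the disc. The treatment label gives 24 hours, while the growth label also names 14 days in the shared plate, so the time of contact is not settled. The 4 groups were roots with 2,5-D, roots with water, shoots with 2,5-D and shoots with water, with 2 libraries each. The labels do not state whether the libraries of a pair come from different plants, and the p-values below therefore rest on the spread of 2 libraries, which could be technical.

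AP2/ERF factors bind DNA through the domain that gives the family its name, and residues of that domain differ between the classes. DREB factors are known for binding the dehydration-responsive element in genes of the cold, drought, salt and heat responses. ERF factors are known for binding the GCC box in genes that answer to ethylene, jasmonate, pathogens and low oxygen, AP2 factors for organ growth and flowering time, and RAV factors, which carry a B3 domain as well, for growth and flowering control.

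By the subfamily that the RefSeq gene notes state, the members were 15 DREB, 18 ERF, 2 AP2 and 1 RAV gene. Of the 9 annotated genes of DREB subfamily A-6, 6 were members, as were 4 of 6 in A-1 and 4 of 7 in B-4 of the ERF class. In A-4 1 of 16 and in A-5 2 of 15 were members; DEAR1, listed but outside the name rule, is also of A-5. The classes can be read in the coding sequence. The stretches below are the 21 coding bases of one run of the AP2/ERF domain, from RefSeq TAIR10.1, matched by locus tag, and the capitals mark the codons of the 14th and 19th residues of the domain. They are shown for the members on which the results turn.
CBF2: tggGTGtgtgagttgagaGAG
CBF3: tggGTTtgtgaggttagaGAA
DDF1: tggGTCtgcgaagtcagaGAA
DREB2C: tggGTTgctgagatccgtGAG
RAP2.10: tggGTGgcggagataagaGAG
AT1G22810: tggGTAtcagagattagaGTT
RAP2.4: tggGTGgctgagatccgtTTG
HRE2: tggGCAgcggagattcgtGAC
ABR1: tggGCGgctgagattcgaGAT
ERF104: tacGCGgcggagattaggGAT
AT5G07580: tttGCAgcagagattcgaGAT
CRF7: tggGCGgctgagattagaTGT
ESE3: tggGTCtccgaaattcgtCAC
All 15 DREB members had a valine codon (GTN) at the first capital triplet. The second was glutamate in 8 of them, leucine in 5, all of subfamily A-6, and valine or lysine in 1 each. Among the ERF members 13 had alanine and then aspartate, CRF7 had alanine and cysteine, ESE3 had valine and histidine, and in 3 genes of subfamily B-6 no such run was found. The classes below follow the gene notes, and the values for the 8 members with valine and glutamate and the 13 with alanine and aspartate stand beside them.

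The deposited value of a gene is a normalized expression signal with no unit in the file headers, so members are tested only between libraries of one organ, and levels are not compared between genes. Where levels of roots and shoots are set side by side, as for the markers below, they come from separate tables that may have been normalized separately. The values of the listed genes summed to 328345 and 343912 in the 2,5-D roots against 252870 and 270237 in the water roots, and to 296689 and 305548 in the 2,5-D shoots against 271587 and 308223 in the water shoots. Total read depth is unknown. The organ labels held: the 6 listed shoot markers of a list of 10 summed to 9025 and 10493 in the 2,5-D shoots and 16490 and 16952 in the water shoots, and to between 115 and 158 in the 4 root libraries. The 4 listed root markers of a list of 11 (CASP1, CASP2, ESB1 and SHR) summed to 63.4 and 81.2 in the 2,5-D roots, 136 and 143 in the water roots, and 4.63 to 8.23 in the shoots. Libraries of one group correlated at r = 0.988 to 0.996 over the 3691 genes except the water shoots (r = 0.946), of which 553 genes lay at least 2-fold apart on the log2(value + 1) scale. That scale is used for every change below, and on it the change of a gene with low values comes out smaller.

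In roots, most members were higher with 2,5-D. All 36 were tested, 23 rose and 9 fell (limma, Benjamini-Hochberg adjusted p under 0.05). Of all 3487 tested genes 61.5% passed, 39.0% higher and 22.5% lower. All but 2 of the listed genes, and every member, kept both 2,5-D libraries apart from both water libraries in at least 1 organ. The tables thus look like lists chosen on these same libraries, and the calls do not count as independent evidence. The median log2 change was 0.73 over the members and 0.26 over all tested genes. The 4 members that did not pass were AT1G22190, ORA59, ERF2 and ERF4. CBF2, CBF3, CBF4, ESE3, RAP2.2, RAP2.4 and TEM1 lost their call when either 2,5-D root library was left out; AT4G28140, AT4G39780 and AT5G52020 lost it without replicate 1, where 15 members were higher and 7 lower, and AT1G64380 without replicate 2. With a water root library left out, CBF3 lost its call without replicate 1, and CBF4 and ESE3 without replicate 2. In whole organs, fewer cells of a type and less RNA per cell cannot be told apart, and the root markers, which fell in all 4 listed cases with 2,5-D, moved alongside; their part in the results was not tested.

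**Figure D1:**
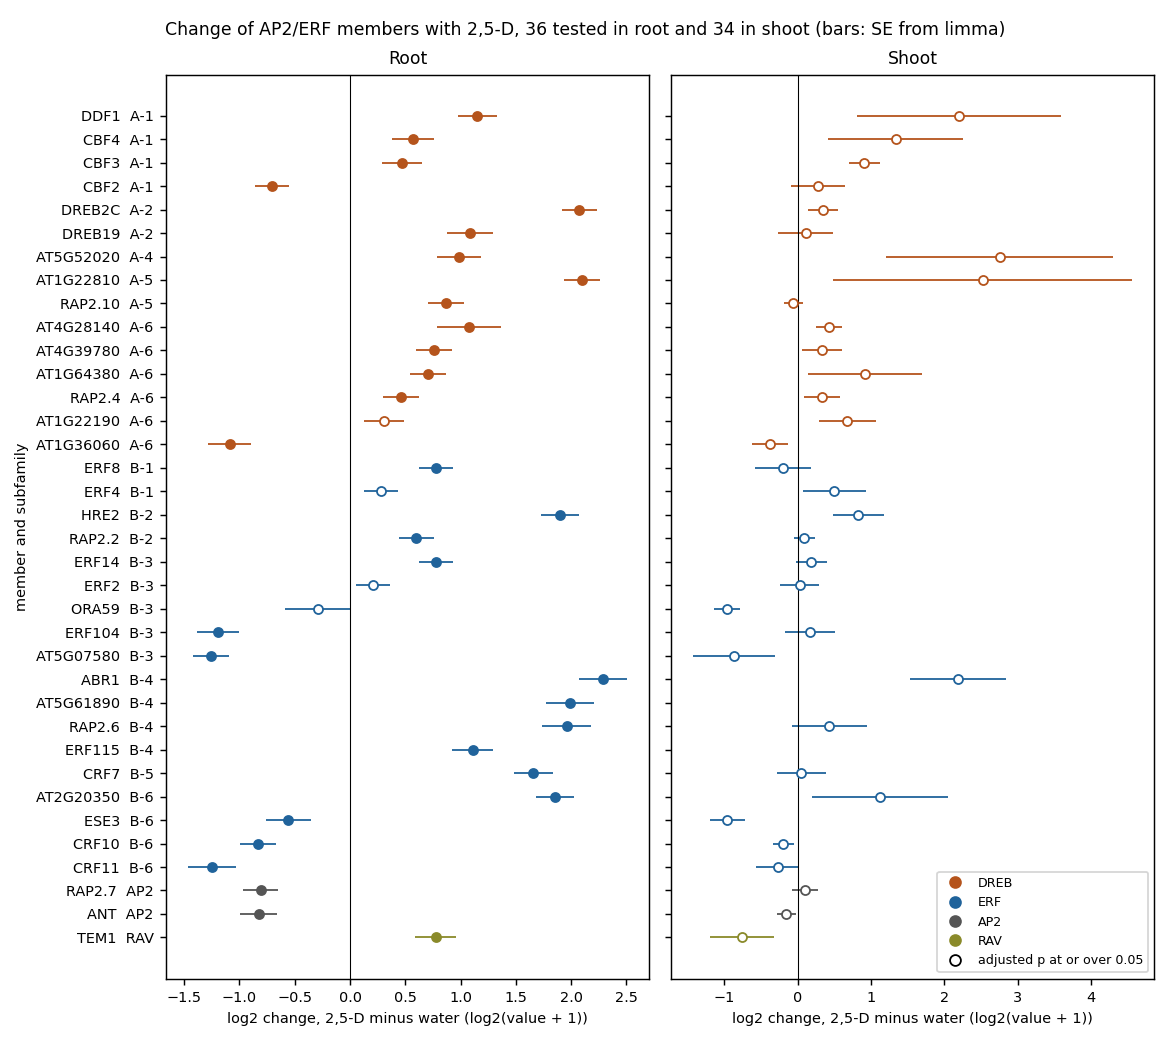
Log2 change with 2,5-D against water of each member in roots (left) and shoots (right), ordered by class and subfamily, as the limma estimate with its standard error; filled points passed adjusted p 0.05. In roots 32 of 36 points are filled, 23 of them to the right of 0, and in shoots none of 34 is filled.

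Among the 15 DREB members 12 rose in roots and 2 fell, CBF2 and AT1G36060 (39.0% and 22.5% of all tested genes). The median change of the 15 was 0.76 (0.93 over the 8 with valine and glutamate), or 0.44 (0.58) with the trend on transcript length removed. Over all tested genes the median was 0.26, or 0.099 with that trend removed. Subfamily A-2 holds the DREB2-type activators. DREB2C, known from heat and drought responses, had 12.5 and 13.2 in the 2,5-D roots against 2.23 and 2.36 in the water roots. Its change of 2.07 ± 0.16 (SE, n = 2 libraries per group) had a limma adjusted p of 3.65e-05. DREB19, of the same subfamily, had 3.15 and 4.96 in the 2,5-D roots against 1.32 and 1.37 in the water roots, a change of 1.08 ± 0.21. In both genes every 2,5-D root library lay above both water root libraries, as in 51.3% of listed genes.

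The A-1 subfamily, which holds the CBF genes of cold acclimation, did not move as one in roots. DDF1, known for restraining growth by lowering gibberellin and for salt tolerance, had 519 and 617 in the 2,5-D roots against 229 and 283 in the water roots (change 1.15 ± 0.18, limma adjusted p 7.76e-04). CBF4, known from the drought response, had 29.6 and 33.8 in the 2,5-D roots against 17.8 and 24.7 in the water roots (change 0.57 ± 0.19, adjusted p 0.0258). CBF3 had 18.6 and 22.8 in the 2,5-D roots against 13.0 and 16.4 in the water roots, a change of 0.47 ± 0.18 with adjusted p 0.0427. CBF2 went the other way and fell by 0.71 ± 0.16 (adjusted p 0.00369), with 79.8 and 80.7 in the 2,5-D roots against 129.6 and 133 in the water roots. The groups did not overlap in any of the 4 genes. Over the listed genes, the 2,5-D roots were above both water roots in 51.3% and below both in 31.5%. The calls for CBF3 and CBF4 were lost when libraries were scaled to equal medians, with no filter on low values and with the trend on transcript length removed. CBF2 and CBF3, both on chromosome 4, share 86.7% of 654 aligned coding positions. Whether the counting split reads between them was not tested, and their separate values are uncertain to that extent.

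Of the A-5 subfamily, AT1G22810 had 116 and 133 in the 2,5-D roots against 27.1 and 29.3 in the water roots, with a change of 2.1 ± 0.16 and an adjusted p of 3.73e-05. RAP2.10, also called DEAR4, a DREB protein with an EAR repressor motif, had 69.3 and 71.6 in the 2,5-D roots against 35.1 and 41.6 in the water roots (0.87 ± 0.16). The listed A-4 gene, AT5G52020, had 552 and 601 in the 2,5-D roots against 242 and 349 in the water roots, a change of 0.99 ± 0.20. All 3 rose, with the 2,5-D roots above both water roots, as in 51.3% of listed genes.

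The 6 members of A-6 include RAP2.4, or WIND1, known for promoting dedifferentiation at wounds. RAP2.4 had 141 and 144 in the 2,5-D roots against 95.9 and 112 in the water roots, with a change of 0.46 ± 0.16 and an adjusted p of 0.0332. AT4G28140 had 3.71 and 5.01 in the 2,5-D roots against 0.82 and 2.51 in the water roots (change 1.07 ± 0.29), an uneven water pair. RAP2.4 lost its call with equal medians and with the length trend removed, and AT4G28140 lost it with the length trend removed. AT1G36060 was the one that fell, by 1.09 ± 0.20, with 7.17 and 9.55 in the 2,5-D roots against 16.2 and 21.8 in the water roots. AT4G39780 and AT1G64380 rose by 0.76 and 0.70, and AT1G22190, with a change of 0.30 ± 0.18, did not pass (adjusted p 0.159).

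**Figure D2:**
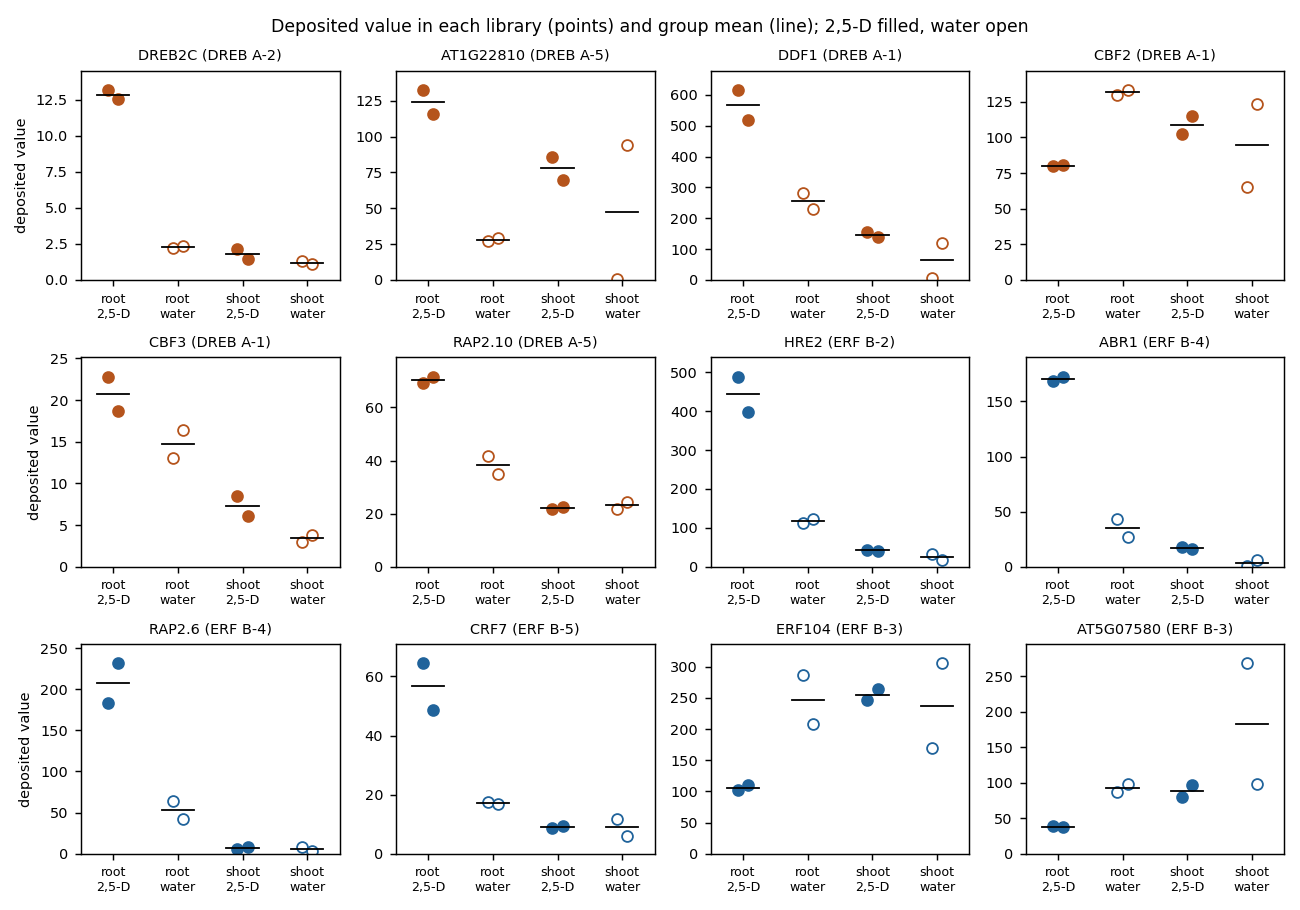
Deposited expression value (y axis, normalized, unit not given, starting at 0) of 12 members in every library; points are libraries, lines are means of 2, filled points 2,5-D and open points water. Levels of roots and shoots come from separate tables. DREB2C lies at 12.5 and 13.2 in the 2,5-D roots against 2.23 and 2.36 in the water roots, while AT1G22810 and DDF1 show a wide gap between the 2 water shoots.

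Among the 18 ERF members 10 rose in roots and 5 fell (39.0% and 22.5% of all tested genes). Their median change was 0.69 (0.78 over the 13 with alanine and aspartate), or 0.41 with the trend on transcript length removed. Over all tested genes the median was 0.26, or 0.099 with that trend removed. In subfamily B-4 all 4 members rose, with a median change of 1.97. ABR1, a repressor of abscisic acid responses, had 168 and 173 in the 2,5-D roots against 26.7 and 43.3 in the water roots, with a change of 2.29 ± 0.22 and an adjusted p of 8.17e-05. RAP2.6, known from stress and wound responses, had 183 and 231 in the 2,5-D roots against 42.2 and 64.7 in the water roots (1.96 ± 0.22). AT5G61890 had 12.7 and 17.5 in the 2,5-D roots against 2.36 and 3.82 in the water roots (1.99 ± 0.22). ERF115, known for driving cell division and regeneration in the root stem cell niche, had 4.69 and 5.24 in the 2,5-D roots against 1.44 and 2.13 in the water roots (1.11 ± 0.19). In these 4 genes the 2,5-D roots lay above both water roots, as in 51.3% of listed genes.

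HRE2 and RAP2.2 of subfamily B-2 belong to the group known for the low-oxygen response, whose proteins are kept unstable while oxygen is present. HRE2 had 398 and 489 in the 2,5-D roots against 112 and 124 in the water roots, and its change of 1.90 ± 0.17 had an adjusted p of 6.83e-05. RAP2.2 had 217 and 232 in the 2,5-D roots against 146 and 149 in the water roots, a change of 0.60 ± 0.16 with adjusted p 0.00838. Both rose, with the 2,5-D roots above both water roots, as in 51.3% of listed genes.

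The B-3 subfamily, which holds activators of ethylene and jasmonate defence genes, moved in both directions in roots. ERF104, a substrate of the kinase MPK6 in the response to flagellin, fell by 1.2 ± 0.19 (adjusted p 8.85e-04), with 103 and 109 in the 2,5-D roots against 207 and 287 in the water roots. AT5G07580 fell by 1.26 ± 0.16, with 37.4 and 38.5 in the 2,5-D roots against 86.3 and 98.5 in the water roots. ERF14 rose by 0.78 ± 0.15. ORA59, which joins the jasmonate and ethylene signals, had 17.6 and 22.9 in the 2,5-D roots against 16.8 and 36.5 in the water roots, and ERF2 had 145 and 147 in the 2,5-D roots against 124 and 129 in the water roots; neither passed. The 2,5-D roots lay below both water roots for ERF104 and AT5G07580 (31.5% of listed genes), and between them for ORA59 (4.8%).

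The remaining ERF members split by subfamily. In B-1, the repressors with an EAR motif, ERF8 rose by 0.78 ± 0.15, and ERF4 had a change of 0.28 ± 0.15 (adjusted p 0.128). CRF7, a cytokinin response factor of B-5, had 48.8 and 64.4 in the 2,5-D roots against 16.7 and 17.5 in the water roots, a change of 1.66 ± 0.18. In B-6, AT2G20350 rose by 1.85 ± 0.17, with 21.4 and 23.6 in the 2,5-D roots against 4.84 and 6.22 in the water roots. The other 3 genes of B-6 fell: CRF11 by 1.25 ± 0.22, CRF10 by 0.83 ± 0.17 and ESE3, named for its induction by ethylene and salt, by 0.56 ± 0.20. ESE3 was low in every root library, at 1.03 and 1.38 with 2,5-D against 1.84 and 2.7 with water.

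Both AP2 members fell in roots. ANT, known for keeping cells dividing in growing organs, had 4.64 and 5.51 in the 2,5-D roots against 9.24 and 10.3 in the water roots (change -0.83 ± 0.17, adjusted p 0.00238). RAP2.7, or TOE1, a repressor of flowering, had 16.8 and 17.9 in the 2,5-D roots against 28.7 and 33.5 in the water roots (change -0.81 ± 0.16). TEM1, the RAV member and likewise a repressor of flowering, rose by 0.78 ± 0.18, with 147 and 151 in the 2,5-D roots against 74.3 and 101 in the water roots.

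The genes that work with the family were counted from lists of its known partners. Of 16 target genes of CBF and DREB2 factors 8 were listed, and 7 rose in roots with none lower (39.0% and 22.5% of all tested genes). KIN1 had 530 and 618 in the 2,5-D roots against 194 and 263 in the water roots, a change of 1.34 ± 0.19, and KIN2 had 1125 and 1266 in the 2,5-D roots against 508 and 560 in the water roots; the genes are near copies, so the split of reads between them is uncertain. COR15A, a chloroplast protein of cold acclimation, did not pass (0.38 ± 0.18, adjusted p 0.0851). Of 11 regulators of CBF genes 5 were listed, and MYB15, OST1 and ZAT12 rose in roots, as did 39.0% of all tested genes. The activators CAMTA1 and CAMTA3 had changes of -0.02 and 0.18 and did not pass.

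Of the ethylene synthesis genes reported here, ACS2, ACS8 and ACO5 rose in roots, ACS11 fell, and ACO1 did not pass. ACS2, which makes the ethylene precursor, had 10.3 and 12.9 in the 2,5-D roots against 3.94 and 4.09 in the water roots, a change of 1.32 ± 0.17. Of 12 genes of ethylene perception and signalling the 2 listed were EBF1 and EBF2, which target the ethylene regulator EIN3 for breakdown, and both fell in roots, by 0.70 ± 0.16 and 0.62 ± 0.21. Of 11 genes of the low-oxygen response 5 were listed. ADH1 and SRO5 rose in roots by 0.73 ± 0.16 and 0.91 ± 0.18, while PDC1, PGB1 and SUS4 did not pass. For these lists the shares over all tested root genes were 39.0% higher and 22.5% lower. None of the 6 defence genes with GCC boxes was listed. In shoots no gene of these lists passed the test.

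In shoots no member passed the test, and the pair of water libraries differed more than any other pair. Of the 34 members tested (ERF115 and AT5G61890 had means under 1) none was called, as among all 3376 tested genes, where the share called was 0.0%. An unadjusted p under 0.05 was reached by 4 members and by 49.3% of all tested genes. The smallest adjusted p of a member was 0.0524, for ORA59. The median change was 0.23 over the members, 0.42 over the DREB members and 0.07 over the ERF members, against 0.37 over all tested genes (0.63 and 0.16 with the classes taken from the residues). Without water replicate 1 the DREB and ERF medians were 0.18 and -0.08 (0.35 and -0.07 by residues), without water replicate 2 they were 0.73 and 0.08 (0.89 and 0.28), and with equal medians 0.02 and -0.33 (0.23 and -0.24). With the length trend removed the DREB and ERF medians were 0.32 and -0.08 (0.51 and -0.05 by residues). The median over all tested shoot genes was then -0.04. A pseudocount of 0.1 gave 0.68 for DREB and 0.08 for ERF members (0.81 and 0.16), against 0.40 over all tested genes. Scaling libraries to equal medians moved the median of all tested shoot genes by -0.40 and turned the sign of 11 members, CBF2, DREB2C and ERF104 among them; in roots it moved that median by -0.11 and turned none.

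The water shoots lay at least 4-fold apart in 6 members, all with replicate 2 the higher, where 3.79% of the listed genes were so. Of these 6 genes 5 were DREB, of subfamilies A-1, A-4, A-5 and A-6. AT1G22810 had 69.8 and 86.1 in the 2,5-D shoots against 0.95 and 94.1 in the water shoots 1 and 2. AT5G52020 had 56.8 in both 2,5-D shoots against 0.96 and 36.4 in the water shoots 1 and 2. DDF1 had 139 and 154 in the 2,5-D shoots against 7.58 and 119.9 in the water shoots 1 and 2. The 2,5-D shoots were thus nearer to water replicate 2 than to water replicate 1 in all 3.

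CBF4 had 20.0 and 25.9 in the 2,5-D shoots against 2.97 and 21.3 in the water shoots 1 and 2. AT1G64380 had 11.3 and 15.5 in the 2,5-D shoots against 2.65 and 14.6 in the water shoots 1 and 2. AT2G20350, the one ERF gene of the 6, had 3.96 and 4.48 in the 2,5-D shoots and was listed at 0 in water replicate 1 and at 4.74 in water replicate 2. In the 2,5-D shoots, the 2,5-D roots and the water roots no member lay 4-fold apart. The differences between the water shoots were not limited to one direction: AT5G07580, RAP2.6 and TEM1 were at least 2-fold higher in water replicate 1.

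**Figure D3:**
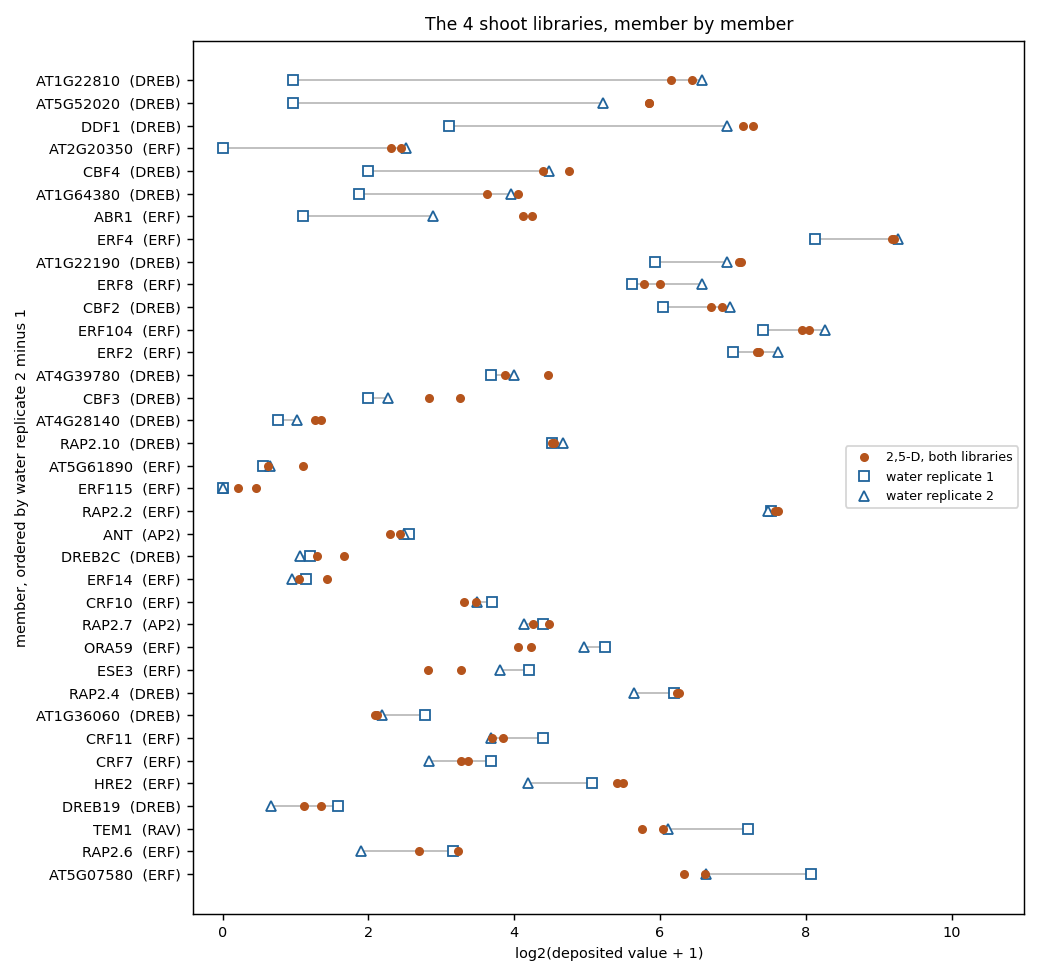
Log2(deposited value + 1) of the 36 members in the 4 shoot libraries, ordered by the gap between the water libraries; filled points are the 2,5-D libraries, squares water replicate 1 and triangles water replicate 2, and grey lines join the water pair. The 6 members at the top have a gap of at least 4-fold, with the 2,5-D points beside the triangle.

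Against both water shoots, the 2,5-D shoots were above in 11 members (49.7% of listed genes), below in 7 (25.9%) and between them in 11 (9.75%), and partly overlapping in 7 (14.6%). In roots the 2,5-D libraries were above both water libraries in 26 members (51.3% of listed genes), below in 9 (31.5%) and between in 1 (4.8%). The mean of the 2,5-D shoots differed in direction against the 2 water shoots for 14 members, 5 DREB and 8 ERF genes and 1 other. That count was made over the members only, so it cannot be set against the listed genes. With water replicate 1 left out, 7 members were called higher and 3 lower (42.4% and 20.3% of tested genes), and with water replicate 2 left out, 14 higher and 6 lower (47.8% and 25.4%). In those fits 1 water library is assumed to vary like the 2,5-D pair.

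Among the members with the 2,5-D shoots apart from both water shoots, ABR1 had 16.4 and 17.9 in the 2,5-D shoots against 1.14 and 6.42 in the water shoots, a change of 2.19 ± 0.66 (adjusted p 0.0769). CBF3 had 6.10 and 8.55 in the 2,5-D shoots against 2.99 and 3.81 in the water shoots (0.91 ± 0.22, adjusted p 0.0559). HRE2 had 41.7 and 44.2 in the 2,5-D shoots against 17.2 and 32.7 in the water shoots (0.83 ± 0.35, adjusted p 0.142). All 3 had the 2,5-D shoots above both water shoots, and none passed.

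On the low side, ORA59 had 15.6 and 17.8 in the 2,5-D shoots against 30.0 and 37.1 in the water shoots (change -0.96 ± 0.18). ESE3 had 6.07 and 8.62 in the 2,5-D shoots against 13.0 and 17.4 in the water shoots (-0.96 ± 0.24, adjusted p 0.0593). AT5G07580 had 79.8 and 97.4 in the 2,5-D shoots against 97.8 and 268 in the water shoots (-0.87 ± 0.56). TEM1 had 52.8 and 64.7 in the 2,5-D shoots against 68.2 and 146 in the water shoots (-0.76 ± 0.43). The 2,5-D shoots were below both water shoots in all 4, by a narrow margin for AT5G07580 and TEM1. The summed shoot markers were lower in the 2,5-D shoots too, and their part in these values was not tested.

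The change in roots was then set against the change in shoots, as the difference of changes within each table. Of the 36 members the difference passed for 7: it was positive, root change above shoot change, in 5 and negative in 2. Over all 3602 genes tested it passed for 33.0%, positive in 10.4% and negative in 22.5%. DREB2C had the difference that was called under most settings: its changes were 2.07 ± 0.16 in roots and 0.35 ± 0.20 in shoots, and their difference was 1.73 ± 0.21 (limma adjusted p 0.0134). In the shoots DREB2C had 1.45 and 2.16 with 2,5-D against 1.08 and 1.3 with water. CRF7 had 8.61 and 9.28 in the 2,5-D shoots against 6.15 and 11.9 in the water shoots, with a difference of 1.61 ± 0.40, and RAP2.10 had 21.9 and 22.5 in the 2,5-D shoots against 21.9 and 24.4 in the water shoots, with a difference of 0.92 ± 0.20. AT5G61890 and ERF115, at 1.14 or less in every shoot library, passed the filter on low values only through roots and were not tested in shoots. Their differences of 1.73 ± 0.36 and 0.77 ± 0.24 are given as values and support no organ difference, which leaves 3 positive and 2 negative calls among the members tested in both organs. With root water replicate 2, root 2,5-D replicate 2 or either 2,5-D shoot library left out, only DREB2C of the 7 kept its call, and without root 2,5-D replicate 1 none did.

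RAP2.7 and ANT were the 2 members with a negative difference. RAP2.7 had 18.1 and 21.2 in the 2,5-D shoots against 16.5 and 20.2 in the water shoots, and the difference was -0.91 ± 0.23 (adjusted p 0.0283). ANT had 3.90 and 4.41 in the 2,5-D shoots against 4.62 and 4.88 in the water shoots, with a difference of -0.67 ± 0.18 (adjusted p 0.0347). Both negative calls were lost with libraries at equal medians, and with any one of the 4 root libraries or either 2,5-D shoot library left out.

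HRE2, ERF104 and CBF2 did not pass the test of the difference. For HRE2 it was 1.07 ± 0.42 (adjusted p 0.0913). ERF104 had 246 and 264 in the 2,5-D shoots against 169 and 305 in the water shoots, and its difference was -1.36 ± 0.43 (adjusted p 0.0517). With libraries weighted by the spread of their group, ERF104 and TEM1 passed, and ANT and ERF115 no longer did. CBF2 had 103 and 115 in the 2,5-D shoots against 65.1 and 124 in the water shoots, with a difference of -0.98 ± 0.41 (adjusted p 0.110). ERF104 and CBF2 both fell in roots, while in shoots their 2,5-D libraries lay between the water libraries.

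By class, the difference was positive in 6 DREB members and negative in 9 (median -0.37). It was positive in 13 ERF members and negative in 5 (median 0.55). Over all 3602 genes tested it was positive in 1633 and negative in 1969 (median -0.16). The ERF counts and medians of the difference include AT5G61890 and ERF115. Both passed the filter on low values only through roots, were not tested in shoots and support no organ difference. All 4 A-1 genes had a negative difference, none of which passed. DDF1 and CBF4 are among the genes whose water shoots lay 4-fold apart, and CBF2 and CBF3 share 86.7% of their aligned coding positions. Of the 34 members tested in both organs, 21 had positive changes in both, 7 negative in both and 6 opposite signs. Over all tested genes 2032 of 3487 changes were positive in roots and 2134 of 3376 in shoots. Signs in both organs together were not counted over all genes. Scaling to equal medians turned the shoot sign of 11 members, so these counts depend on the scaling. The DREB signs of the difference rest on water replicate 1 of the shoots. Without it, 11 DREB members had a positive difference and 4 a negative one (median 0.51), against 14 and 4 ERF members (median 0.51). Of the DREB members, AT1G22190, AT1G22810, AT1G64380, AT5G52020, CBF4 and DDF1 then turned from negative to positive, and RAP2.4 from positive to negative. The ERF and DREB medians were 0.19 and -0.37 with a pseudocount of 0.1, and 0.86 and -0.06 with equal medians. They were 0.13 and -0.32 with the length trend removed, and 0.51 and -0.57 without shoot water replicate 2. Over all genes tested the median was -0.22 with a pseudocount of 0.1, 0.15 with equal medians and -0.05 with the length trend removed. For all genes it was 0.06 without shoot water replicate 1 and -0.30 without shoot water replicate 2.

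**Figure D4:**
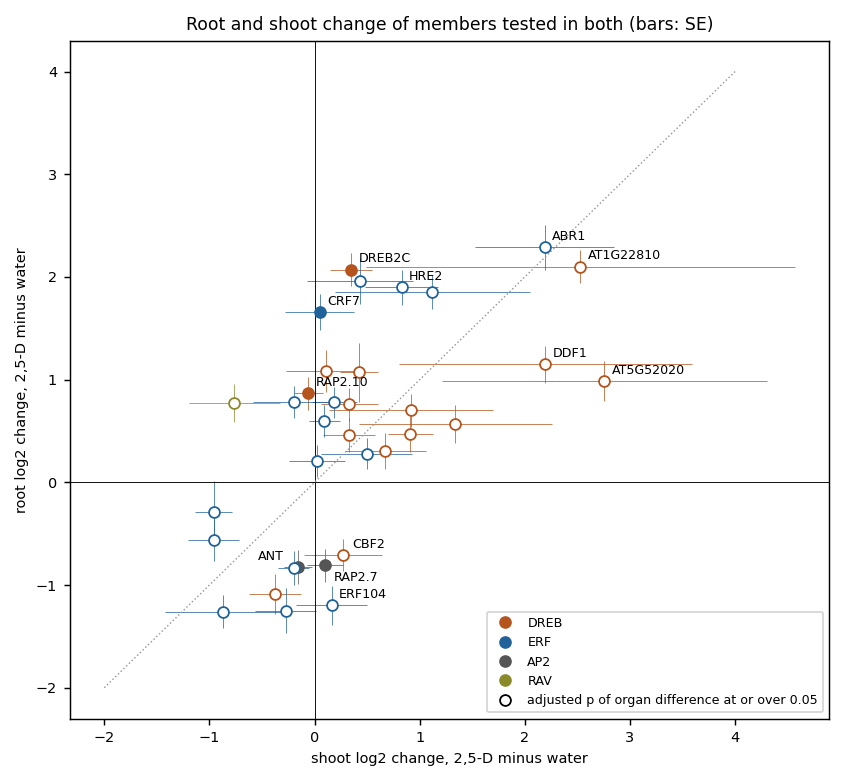
Log2 change with 2,5-D in roots (y axis) against shoots (x axis) for the 34 members tested in both, with standard errors from limma; the dotted line marks equal change and filled points are members whose organ difference passed adjusted p 0.05. DREB2C, CRF7 and RAP2.10 lie above the line with shoot changes near 0, and the widest horizontal bars belong to AT1G22810, AT5G52020 and DDF1.

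The 250 bases before each annotated start in RefSeq TAIR10.1 were searched on both strands. The GCC box, GCCGCC, was present for 2 members, ORA59 and ABR1, where 1.97% of the windows of all 38092 annotated genes held it. The core of the dehydration-responsive element, ACCGAC or GCCGAC, was present for 4 members, CRF7, CRF10, RAP2.10 and ABR1 (6.83% of all genes). The GCCGAC form can share bases with a GCC box. The G box CACGTG was present for 6 members (5.37%), the CGCG box CGCGTT for 2, CBF2 and AT4G28140 (2.58%), and the short W box TTGAC for 14 (43.9%), of which 9 were DREB and 4 ERF genes. Over the 3691 listed genes the shares were 1.76% for the GCC box and 8.59% for the core of the dehydration-responsive element. They were 8.62% for the G box, 4.04% for the CGCG box and 50.4% for the W box. All such matches describe letters in a window and say nothing of binding.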

How the data were processed

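Roots and shoots were measured with 2 libraries per group, 8 in all, prepared with a DNBSEQ kit according to the labels. The authors deposited a normalized expression signal per gene in one table per organ, each with the same 3691 genes, all matched to RefSeq TAIR10.1 by locus tag. Per the submitters' processing notes, reads were aligned with HISAT2 2.0.4. The genome build, annotation and quantifying program, not given in the sources used here, could not be matched, so no coordinates are printed. Both 2,5-D shoot columns carry the same replicate number and were used as an unnumbered pair.

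The test was limma (version 3.58.1, R version 4.3.3) with its trend of variance on mean, fitted to log2(value + 1) for genes averaging 1 or more, per organ, and for the difference of the changes over all 8 libraries. P-values were adjusted over all tested genes by the Benjamini-Hochberg method, with a threshold of 0.05. The fit was also run on simulated data in which a gene had the same spread in every group. That simulation does not cover the wider spread of the water shoots. With 2 libraries against 2 an exact permutation test cannot go below 0.333. The members and lists were chosen with earlier results of these data known. The search for the domain run was widened to allow tyrosine or phenylalanine at its first residue, and the classes from gene notes, which were added after seeing the data, are used beside those from residues. The text names HRE2, ERF104 and CBF2, the 8 DREB and 10 ERF members with the largest called root changes, the 6 of each class with the largest shoot changes, the members called for the difference, and the AP2 and RAV members; others named were chosen after their values were seen. Same-numbered root libraries did not deviate together (r = -0.0494 over 3487 genes), so they were not treated as paired. A gene of the pathway lists is not reported here.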

Additional observations from a re-analysis of the deposited data

Results flagged for a closer look

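Each gene below was set apart because its change with 2,5-D differed between roots and shoots by the limma test of the difference (root change minus shoot change, log2 scale, n = 2 libraries per group, adjusted p under 0.05). Among the members, the root change was the higher for AT5G61890 (1.73), DREB2C (1.73), CRF7 (1.61), RAP2.10 (0.92) and ERF115 (0.77). It was the lower for RAP2.7 (-0.91) and ANT (-0.67). AT5G61890 and ERF115 were near 0 in every shoot library, passed the filter on low values only through roots and were not tested in shoots, so their values do not show a difference between organs.

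Outside the members, the AP2/ERF domain genes EDF3 and CRF3 had differences of 1.19 and -1.57. CAMTA1, an activator of CBF genes, had a difference of -0.74.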

How the results depend on the processing

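In roots, 23 members higher and 9 lower became 20 and 9 with libraries at equal medians, 19 and 9 with the trend on transcript length removed, and 28 and 10 with the 8 further domain genes added. For the changed fits of roots and of the organ difference, the shares of all tested genes called are not given. The member counts from those fits therefore cannot be set against other genes. Leaving out one root library gave 15 to 23 higher and 7 to 10 lower, the lowest count without 2,5-D replicate 1. With the length trend removed, the root medians were 0.58 for DREB and 0.41 for ERF members, classed by residues, against 0.099 over all tested genes. The replicate block left the same 32 root calls; for shoots no paired analysis was possible because both 2,5-D columns carry the same number.

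In shoots, 0 members higher and 0 lower became 2 lower (ESE3 and ORA59) with equal medians. Leaving out one shoot library gave 0 to 14 higher and 0 to 6 lower, and the calls came from leaving out a water library.

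The 5 positive and 2 negative organ differences were least stable. They became 3 and 1 with a pseudocount of 0.1, 1 and 0 with the length trend removed, and 2 negative became 0 with equal medians. With libraries weighted by the spread of their group they stayed at 5 and 2, with ERF104 and TEM1 in place of ANT and ERF115. Leaving out one of the 8 libraries gave 0 to 11 positive and 0 to 11 negative. DREB2C kept its call in all but one of these, without root 2,5-D replicate 1. The difference of ERF115 was -0.37 with a pseudocount of 0.1. Without shoot water replicate 1 the differences of AT1G22810, AT1G64380 and DDF1 were 2.38, 0.83 and 0.86, and without shoot water replicate 2 they were -3.23, -1.26 and -2.95. The cause was not tested in these cases. Depth is unknown, and 2 libraries per group limit the precision.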

Other observations

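The 8 listed AP2/ERF domain genes with names outside the rule were tested in the same fits, and 5 rose and 1 fell in roots, where 61.5% of all tested genes passed. DEAR1, a DREB protein of subfamily A-5 with an EAR motif, had 490 and 541 in the 2,5-D roots against 144 and 192 in the water roots, a change of 1.62 ± 0.18 (SE, limma adjusted p 1.71e-04). RRTF1, known from redox and light stress, had 1045 and 1088 in the 2,5-D roots against 546 and 567 in the water roots, a change of 0.94 ± 0.15. The cytokinin response factors moved apart: CRF6 rose by 0.68 ± 0.17 and CRF3 fell by 0.93 ± 0.18.

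In shoots RRTF1 had 589 and 700 with 2,5-D against 37.8 and 541 in the water shoots 1 and 2, and ERF11 had 457 and 558 with 2,5-D against 122 and 481 in the water shoots 1 and 2. In both genes water replicate 2 was the higher, as in DDF1 and AT1G22810. The gap was narrower in ERF11 than in RRTF1, DDF1 and AT1G22810. CRF3 had 4.83 and 5.59 in the 2,5-D shoots against 2.5 and 3.51 in the water shoots, above both, whereas in roots it had 8.53 and 10.6 with 2,5-D against 17.3 and 20.9 with water. EDF3, a RAV gene, had 58.0 and 62.6 in the 2,5-D roots against 34.8 and 41.9 in the water roots, while in shoots it had 6.85 and 6.86 with 2,5-D against 10.05 and 10.96 with water.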
